A study of Mus musculus with 6 samples.

Results

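Carboxylesterases are serine hydrolases of the endoplasmic reticulum that cleave esters, among them drugs, pyrethroids, retinyl esters and stored triglyceride. The mouse genome carries arrays of tandem copies, in which the Ces1 subfamily is best known from liver and adipose tissue and the Ces2 subfamily from the intestinal lining. In humans CES2 is the main intestinal form and turns the colon cancer drug irinotecan into its active product. The 10 genes described here, Ces1d, Ces1e, Ces1f, Ces1g, Ces2a, Ces2b, Ces2c, Ces2e, Ces2g and Ces3a, were taken by symbol from the 26214 genes counted. They were chosen with their knockout and wild-type values in view, so the difference between the genotypes is given for them as a description with no p-value.

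RNA came from colon tumours of mice given azoxymethane, a carcinogen, and dextran sulfate sodium (AOM/DSS), which injures the colon lining. The 3 knockout libraries are from Trim21 -/- mice and the 3 control libraries from Trim21 +/+ (wild-type) mice, and both groups received AOM/DSS. Trim21 encodes a ubiquitin ligase, and the comparison asks what its loss does to the tumour transcriptome. The labels give no strain, age, sex or knockout allele, and no untreated colon is among the samples. Knockout libraries held 17937821 to 19987295 reads and wild-type libraries 27085599 to 29742757. Trim21 itself measured 12.1 to 18.9 CPM (read counts scaled to a common library size with TMM factors) in Trim21 -/- tumours and 19.5 to 29.7 CPM in Trim21 +/+ tumours, which gave a log2 fold change of −0.67 (standard error, SE, 0.24, edgeR adjusted p = 0.418). Whether its reads fall in the deleted stretch was not tested. The epithelial markers of the labelled tissue were abundant, with 12 of 12 tested and a summed level of 8068 to 9415 CPM.

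Because the copies are so alike, their sequences set how well reads can be told apart. The stretches below run over the codon of the catalytic serine, in capitals, and are shown for the members that the results turn on and for the pseudogene Ces2d-ps. They are taken from GENCODE M21 transcripts (GRCm38), 5′ to 3′, 45 bases each.
Ces1d: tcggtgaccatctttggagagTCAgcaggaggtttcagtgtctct
Ces1g: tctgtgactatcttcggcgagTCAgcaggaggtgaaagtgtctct
Ces2a: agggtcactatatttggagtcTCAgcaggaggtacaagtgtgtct
Ces2b: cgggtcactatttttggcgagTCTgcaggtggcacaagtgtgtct
Ces2c: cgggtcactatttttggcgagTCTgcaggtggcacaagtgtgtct
Ces2d-ps: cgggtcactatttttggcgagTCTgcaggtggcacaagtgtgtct
Ces2e: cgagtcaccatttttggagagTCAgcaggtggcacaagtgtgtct
Ces2g: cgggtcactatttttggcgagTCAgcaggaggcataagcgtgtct
In this window Ces2b, Ces2c and the pseudogene differ at 0 of 45 bases, Ces2c and Ces2e at 4, and Ces2a and Ces2c at 8.

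Over the whole coding sequence Ces2c and Ces2d-ps were 97.6% identical, and 40.2% of the 50-base words of the Ces2c transcript also occur in another family transcript. For Ces2b the closest gene was also Ces2d-ps, at 92.2%, but only 4.5% of its 50-base words are shared. For the other 7 Ces1 and Ces2 members the closest relative lay at 79.9% to 86.6%, and 0.5% to 3.4% of words are shared. Ces3a and its neighbour Ces3b were 95.3% identical. Read counts of Ces2c and Ces2d-ps are therefore uncertain as a split, since no source says how reads that match several genes were treated, while most of the sequence of the other tested members is their own.

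**Figure D1:**
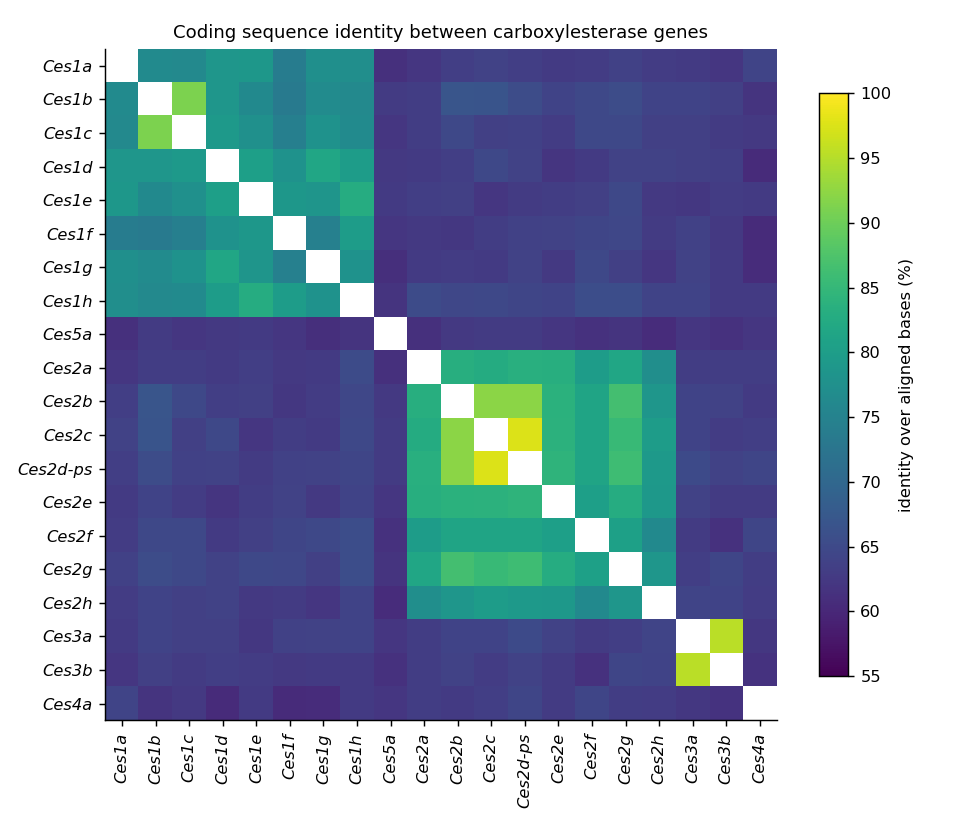
Identity (percent of aligned bases, colour scale from 55 to 100) between the coding sequences of the 20 carboxylesterase genes, in order along chromosome 8 on both axes. The Ces1 and Ces2 blocks stand out, and the highest value off the diagonal is Ces2c with Ces2d-ps at 97.6%.

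All 20 genes lie on chromosome 8 of mm10 (GRCm38). The 8 Ces1 genes sit on the minus strand at chr8:93020214-93379725, and the 8 Ces2 genes on the plus strand at chr8:104734003-105021178, 11.35 Mb further on. Ces3a lies next to the Ces2 array at chr8:105048601-105058413. The deposited counts do not say whether strand was used. Of the members, Ces1d and Ces3a overlap another annotated gene, an unconfirmed transcript in each case, and the other 8 overlap none.

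Ces2e, Ces2c and Ces2a had the highest levels per kilobase in knockout tumours, and the values of Ces2a, Ces2c, Ces1e, Ces2b, Ces1d and Ces2e in knockout tumours were 2.32 to 4.59 times those in wild-type tumours. Ces1g, Ces1f and Ces2g were much closer between the genotypes, at 1.35 to 1.56 times. In these means the split does not follow the subfamilies: Ces1d and Ces1e sat with most of Ces2, and Ces2g sat with Ces1f and Ces1g. The gap between the 2 sets was narrow without wild-type replicate 1. The log2 fold changes were then 0.94 for Ces1d, 0.87 for Ces2e and 0.64 for Ces2g. With all libraries the SE was 0.59 for Ces1d and 0.40 for Ces2e, so their place in the split is uncertain. In bulk tissue, more cells of a type and more RNA per cell cannot be told apart.

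Ces2e (chr8:104926260-104934672), annotated as a pyrethroid hydrolase, measured 67.8, 44.8 and 71.6 CPM in the knockout, listed as replicates 1 to 3 here and throughout, and 12.1, 28.9 and 38.2 CPM in Trim21 +/+ tumours. The groups did not overlap, but knockout replicate 2 came close to wild-type replicate 3. Its mean was 61.4 ± 14.5 CPM in Trim21 -/- tumours and 26.4 ± 13.2 CPM in Trim21 +/+ tumours (SD, n = 3 each), with a fitted log2 fold change of 1.22 (SE 0.40).

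Ces2c (chr8:104847068-104854483), annotated as an acylcarnitine hydrolase, measured 33.8, 32.2 and 53.2 CPM in Trim21 -/- tumours and 5.63, 12.8 and 13.2 CPM in Trim21 +/+ tumours. Each knockout tumour thus lay well above the highest wild-type tumour. The log2 fold change was 1.91 (SE 0.36). Ces2a (chr8:104734003-104741634), a second annotated pyrethroid hydrolase, measured 18.8, 16.2 and 28.1 CPM against 2.01, 6.16 and 5.58 CPM. Its log2 fold change of 2.20 (SE 0.43) was the highest of the 9 fitted members. Ces2b (chr8:104831572-104840093) was scarce, with 2.23, 2.96 and 5.58 CPM against 0.335, 1.66 and 1.48 CPM, and had a log2 fold change of 1.63 (SE 0.63).

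Ces2g (chr8:104961718-104969537) differed less between the genotypes. It measured 18.6, 20.8 and 25.5 CPM in Trim21 -/- tumours and 13.8, 14.9 and 12.8 CPM in Trim21 +/+ tumours. The groups were apart but near each other, and its log2 fold change was 0.64 (SE 0.16).

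In the Ces1 array, Ces1d (chr8:93166068-93197838), known as the triglyceride hydrolase of liver and fat, measured 14.6, 9.60 and 10.6 CPM in Trim21 -/- tumours and 1.68, 2.88 and 9.24 CPM in Trim21 +/+ tumours. Wild-type replicate 3 stood far above the other wild-type tumours and almost reached knockout replicate 2. The log2 fold change was 1.33 (SE 0.59), and it was 2.34 without wild-type replicate 3. Ces1e (chr8:93201218-93229619) is egasyn, which holds the lysosomal enzyme β-glucuronidase in the endoplasmic reticulum. It measured 2.92, 2.09 and 4.13 CPM against 0.235, 1.29 and 0.887 CPM, a log2 fold change of 1.92 (SE 0.60). The lowest of these values rests on 7 reads, with an exact Poisson 95% interval of 2.81 to 14.4 reads that covers counting error only.

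Ces1f (chr8:93256236-93279747), a second lipid hydrolase of the array, measured 11.3, 10.6 and 12.2 CPM in Trim21 -/- tumours and 4.66, 9.61 and 8.80 CPM in Trim21 +/+ tumours. Only wild-type replicate 1 was well below the knockout tumours. The log2 fold change of 0.56 (SE 0.28) was 0.30 without that library. Ces1g (chr8:93302369-93337308), an esterase linked to lipoprotein and liver lipid metabolism, was the only tested member whose groups overlapped. Its levels were 12.7, 24.8 and 19.1 CPM in Trim21 -/- tumours and 13.5, 16.7 and 11.6 CPM in Trim21 +/+ tumours, with a log2 fold change of 0.43 (SE 0.26). Without knockout replicate 2 this became 0.19, and without knockout replicate 1 it became 0.66.

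Ces3a, an esterase of mouse liver, was barely counted, with 0, 6 and 2 reads per knockout library and 2, 0 and 0 reads per wild-type library. At these depths 3 reads correspond to 0.101 to 0.165 CPM, so no fold is given, and the gene did not pass the filter on low counts. The other 9 members passed it.

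**Figure D2:**
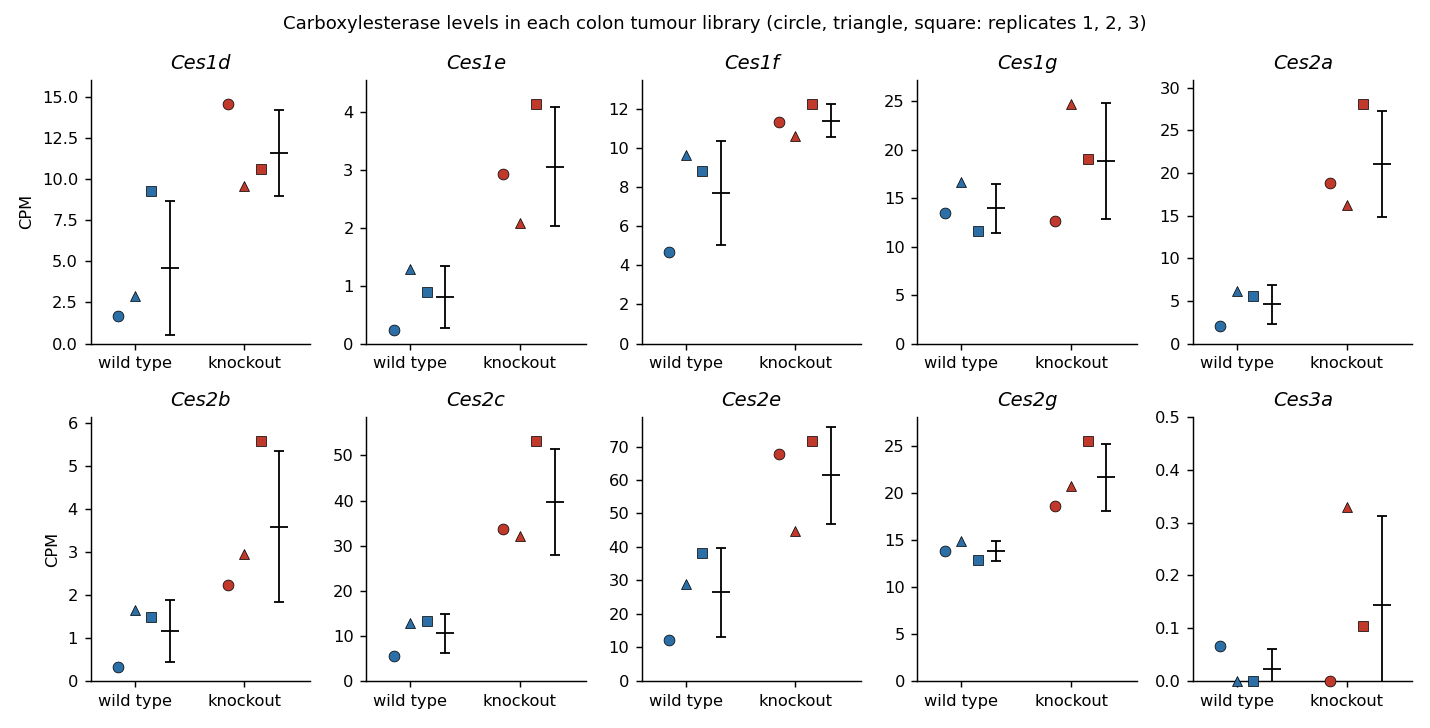
CPM of the 10 members (linear axes, a separate scale in each panel) in 3 wild-type and 3 knockout libraries, with markers for replicates 1 to 3 and the group mean ± SD (n = 3) as a bar beside them. Ces2a and Ces2c separate the groups widely, Ces1g overlaps, and Ces3a lies below 0.5 CPM in every library.

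The log2 fold change was positive for 9 of the 9 tested members, with a median of 1.33, and 8 of them had every knockout library above every wild-type library. Over all 16281 tested genes the median was −0.01 and 9.49% had every knockout library above, and 8.37% below, every wild-type library. With edgeR's quasi-likelihood test at an adjusted p under 0.05, 0 genes were called (0% of 16281), hence 0 members. At an unadjusted p under 0.05 edgeR had 6 members among the higher genes, where 6.63% of all genes were found. DESeq2 called 3 members higher (Ces2a, Ces2c and Ces2g), where 1.51% of all genes were called higher, 0.559% lower and 2.07% in either direction, and limma-voom called 0. Since the members were chosen on this contrast, nothing is read from these counts.

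Wild-type replicate 1 had the lowest value for 7 of the 9 tested members. Leaving it out gave a median log2 fold change of 0.94, with 1.84 for Ces2a, 1.61 for Ces2c, 1.48 for Ces1e, 1.19 for Ces2b, 0.94 for Ces1d and 0.87 for Ces2e. For these members every knockout library lay above every wild-type library, so leaving out 1 library could not bring the difference below 0.

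**Figure D3:**
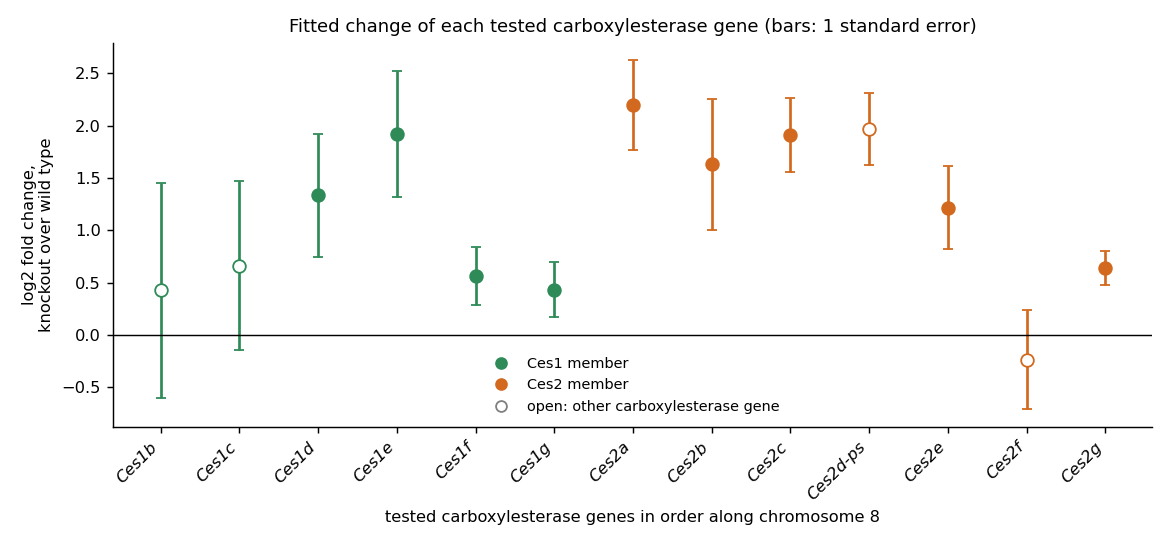
Fitted log2 fold change, knockout over wild type (points, with bars of 1 SE), of the 13 carboxylesterase genes that passed the filter, in order along chromosome 8. Filled points are members and open points other carboxylesterase genes; Ces2a, Ces2c and the pseudogene Ces2d-ps lie near 2 on this scale, and Ces1g, Ces1f and Ces2g below 0.7.

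Levels of different genes were compared per kilobase of transcript. In the knockout the order was Ces2e (22.8 CPM per kilobase), Ces2c (20.2), Ces2a (10.7), Ces1g (7.89), Ces2g (7.58), Ces1f (5.91), Ces1d (5.78), Ces1e (1.47), Ces2b (1.05) and Ces3a (0.0705). Neighbours in this order had overlapping ranges except Ces2c above Ces2a, Ces2g above Ces1f, Ces1d above Ces1e, and Ces2b above Ces3a. In the wild type Ces2e again came first (9.79 CPM per kilobase), followed by Ces1g (5.84), Ces2c (5.35), Ces2g (4.85), Ces1f (3.99), Ces2a (2.34), Ces1d (2.30), Ces1e (0.387), Ces2b (0.340) and Ces3a (0.0109). There the first 6 genes each overlapped with the next, while Ces1d lay wholly above Ces1e, and Ces2b above Ces3a. Ces2e (4.50 to 14.15 CPM per kilobase), Ces1g (4.88 to 6.99) and Ces2g (4.49 to 5.22) lay wholly above Ces2a (1.03 to 3.14).

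Summed over the 4 Ces1 members, levels were 41.5, 47.0 and 46.0 CPM in Trim21 -/- tumours and 20.1, 30.5 and 30.6 CPM in Trim21 +/+ tumours. The 5 Ces2 members together reached 141.2, 116.9 and 184.0 CPM in Trim21 -/- tumours and 33.9, 64.4 and 71.3 CPM in Trim21 +/+ tumours. Both sums separated the groups, and the Ces2 sum did so by more. The ratio of Ces2 to Ces1 came to 3.40, 2.49 and 4.00 with the knockout genotype, against 1.69, 2.12 and 2.33 with the wild-type one. On the log2 scale it was 1.69 ± 0.35 in the knockout and 1.02 ± 0.24 in the wild type (SD, n = 3), a difference of 0.67. The lowest knockout ratio exceeded the highest wild-type ratio by less than the spread within the knockout.

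Within the Ces2 sum, the makeup differed as well. Ces2a took 13.3% to 15.3% of the Ces2 reads in knockout tumours and 5.93% to 9.56% in wild-type tumours, and Ces2c took 23.9% to 28.9% and 16.6% to 19.8%. The share of Ces2g was lower in the knockout, at 13.2% to 17.8% against 18.0% to 40.7%, although its own level was higher there. The groups nearly touched, at 17.79% and 17.99%, and the 40.7% was wild-type replicate 1. Shares of a sum depend on one another, so a larger share of 1 gene lowers those of others. The shares of Ces2a, Ces2c and Ces2g did not overlap between the groups, while those of Ces2b and Ces2e did (Ces2e 38.3% to 48.0% and 35.8% to 53.6%). How often such shares part by genotype over other genes was not computed, so nothing is read from these counts. In the Ces1 sum Ces1g took the most reads in every library other than knockout replicate 1, where Ces1d led. The share of Ces1g ran from 30.6% in knockout replicate 1 to 67.3% in wild-type replicate 1. That of Ces1e was 4.43% to 8.98% in the knockout and 1.17% to 4.22% in the wild type, while those of Ces1d, Ces1f and Ces1g overlapped.

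**Figure D4:**
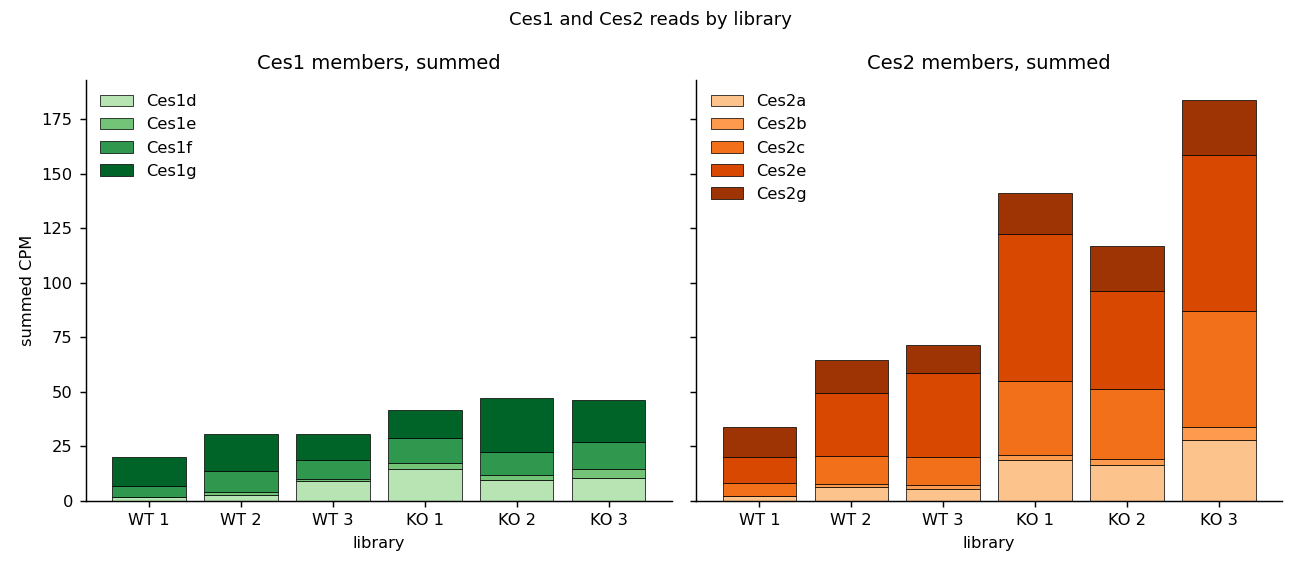
Summed CPM of the 4 Ces1 members (left) and the 5 Ces2 members (right) in each library, stacked by gene, on a common linear axis from 0 (WT, wild type; KO, knockout; numbers are replicates). The Ces2 bars run from 33.9 CPM in wild-type replicate 1 to 184.0 CPM in knockout replicate 3, and the Ces1 bars from 20.1 to 47.0 CPM.

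Ratios of read counts between pairs of genes were also compared from tumour to tumour. Ces2c reads were 1.77 to 2.00 times those of Ces2d-ps in the 6 libraries (SD of the log2 ratio 0.06), the steadiest ratio among the 9 tested members and the pseudogene, and this is also the pair with the most shared sequence. Among pairs of members, Ces2a to Ces2c varied least (SD 0.24), with ratios of 0.557, 0.505 and 0.529 in the knockout and 0.357, 0.483 and 0.422 in the wild type. Every knockout ratio thus lay above every wild-type ratio. These 2 genes are 82.6% identical, and 0.2% of their 50-base words are shared. With Ces2c and Ces2d-ps counted as 1 feature, an alternative chosen after seeing the data, the log2 fold change was 1.93 (SE 0.35), against 1.91 for Ces2c alone. This sum does not test how reads were split between the pair.

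The 10 other carboxylesterase genes were mostly scarce. Ces4a had 0 reads, and Ces1a, Ces1h, Ces2h, Ces3b and Ces5a had 2 to 27 reads over all 6 libraries and were not tested. Ces2d-ps measured 21.7 ± 5.67 CPM in Trim21 -/- tumours and 5.52 ± 2.15 CPM in Trim21 +/+ tumours (SD, n = 3), a log2 fold change of 1.97 (SE 0.35) that did not pass edgeR's test (adjusted p = 0.322). DESeq2 called it. Ces1c, the secreted plasma esterase, had 0.66 (SE 0.81, adjusted p = 0.779), and its near copy Ces1b had 0.43 (SE 1.03, adjusted p = 0.896). Ces2f, at 0.921 ± 0.171 CPM in Trim21 -/- tumours and 1.08 ± 0.538 CPM in Trim21 +/+ tumours, had −0.24 (SE 0.47, adjusted p = 0.875). With edgeR 0 of these 4 tested genes passed. At an unadjusted p under 0.05, 1 was higher, where 6.63% of all tested genes were higher. This was Ces2d-ps, whose reads are uncertain as a split from those of the member Ces2c. The median of the 4 genes was 0.54 beside −0.01 over all tested genes.

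Promoters are shown because the Ces2 copies stand side by side and yet differ in level and in fitted fold change. The 100 bases before the gene start are given on the gene's own strand, all plus, from RefSeq on GRCm38.p6. RefSeq promoters were matched for 6 of the 10 members, all but Ces1d, Ces1f, Ces2b and Ces3a. Capitals mark AACTTTGCCCC, the longest run of letters shared by Ces2a, Ces2e and Ces2f, which reads GGGGCAAAGTT on the other strand.
Ces2a, chr8:104733903-104734002: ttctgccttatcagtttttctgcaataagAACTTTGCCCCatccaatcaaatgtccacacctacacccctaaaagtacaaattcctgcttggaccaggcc
Ces2c, chr8:104846968-104847067: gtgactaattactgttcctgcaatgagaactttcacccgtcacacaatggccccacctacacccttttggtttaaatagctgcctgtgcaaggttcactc
Ces2e, chr8:104926160-104926259: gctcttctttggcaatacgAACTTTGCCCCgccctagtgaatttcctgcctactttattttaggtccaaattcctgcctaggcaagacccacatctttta
Ces2f, chr8:104947256-104947355: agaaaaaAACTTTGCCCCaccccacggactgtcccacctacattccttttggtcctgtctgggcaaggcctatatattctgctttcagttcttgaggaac
Ces2g, chr8:104961618-104961717: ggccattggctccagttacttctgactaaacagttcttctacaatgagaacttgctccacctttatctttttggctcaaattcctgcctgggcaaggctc
The letters and the 3 genes were picked after these promoters had been read. On either strand, GGGGCAAAGTT occurs within 250 bases before the start in 6 of 32851 promoters (0.0183%), and 3 of the 6 are Ces2a, Ces2e and Ces2f. It begins 71, 81 and 93 bases before the start in these. The log2 fold changes of these genes are 2.20, 1.22 and −0.24, and that of Ces2c, whose window lacks the letters, is 1.91.

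Motifs of factors known to act on intestinal and liver genes were also searched on both strands in the 250 bases. The nuclear receptor core AGGTCA was found in Ces2a among the members, and in 14.0% of all promoters. GTTAAT, a core of the HNF1 site (6.43%), had no match in a member. TATAAA (12.4%) matched Ces1g. TTTATG, a form of the caudal-type site (10.8%), matched Ces1e, Ces1g and Ces2g, and the GATA form AGATAA (9.99%) matched the same 3 members. These motifs do not overlap one another in the members.

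Genes with the most similar profile over the 6 libraries were sought by the root-mean-square difference of log2 CPM, each gene centred on its own mean, among 13136 genes. For Ces2e, the most abundant Ces2 member, these were Ppara (0.161), Selenbp1 (0.172), Mep1a (0.174), Slc16a9 (0.179) and Btnl6 (0.183), where the median over all candidates was 0.89. Ppara, the nuclear receptor of fatty acid oxidation, measured 14.5, 8.23 and 11.6 CPM in Trim21 -/- tumours and 2.65, 6.23 and 7.88 CPM in Trim21 +/+ tumours, with the low knockout replicate 2 and the very low wild-type replicate 1 that Ces2e also had. Mep1a encodes a brush-border protease and Selenbp1 a selenium-binding protein. For Ces1g the nearest were the cation channel gene Trpm2 (0.101), the transcription factor gene Ikzf4 (0.104), Tmem86a (0.107), the chemokine gene Cxcl14 (0.128) and Cyp7b1 (0.132), an oxysterol hydroxylase (median over candidates 0.43). Among the members, Ces2g was nearest to Ces1g (0.288) and Ces2c to Ces2e (0.387).

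Markers of several cell types also differed in level between the groups, some in the direction of the members and some not. Over all tested genes 9.49% had every knockout library above, and 8.37% below, every wild-type library, against which the counts of markers stand. Mature colonocyte markers, of which 11 of 19 tested had every knockout library above every wild-type library, had a mean log2 CPM of 6.05 to 6.37 in the knockout and 4.38 to 5.39 in the wild type. Markers of all epithelium differed little, at 8.99 to 9.08 and 8.86 to 9.04, with 2 of 12 not overlapping, both higher. Their sums were 9058 to 9415 CPM in the knockout and 8068 to 9034 CPM in the wild type, without overlap. Goblet cell markers (5 of 10 not overlapping, all higher) summed to 7677 to 13210 CPM and 2003 to 7862 CPM, and smooth muscle markers (6 of 10, all higher) to 938.1 to 1518 CPM and 357.2 to 853.3 CPM, with wild-type replicate 1 lowest in both. Stem and Wnt-active cell markers (4 of 12, all lower) summed to 1242 to 1737 CPM in Trim21 -/- tumours and 1803 to 2403 CPM in Trim21 +/+ tumours. Macrophage (6 of 10, all higher), fibroblast (4 of 10, all higher) and plasma cell markers (4 of 8, all higher) summed to 694.4 to 920.8, 1865 to 2555 and 1505 to 3777 CPM in the knockout, and to 593.8 to 665.8, 1271 to 1845 and 799.9 to 1241 CPM in Trim21 +/+ tumours. By mean log2 CPM the plasma cell markers overlapped between the groups, at 4.515 to 6.007 in the knockout and 3.509 to 4.713 in the wild type. The part of all these markers in the members' values was not tested.

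Markers of liver, fat and small intestine, where carboxylesterases are abundant, are given in the same way, with single genes named after their values were seen. Their counts without overlap also stand beside 9.49% above and 8.37% below over all tested genes. Hepatocyte markers summed to 49.3 to 104.4 CPM in Trim21 -/- tumours and 83.2 to 111.6 CPM in Trim21 +/+ tumours. Alb was at 5.75 to 67.4 CPM and Tat at 16.5 to 50.01 CPM over the 6 libraries, both overlapping between the groups, while Cyp2e1 reached at most 0.887 CPM and Fgb at most 0.0677 CPM. Of the 10 hepatocyte genes 6 were tested, with a median log2 fold change of −0.38 and 0 not overlapping. Adipocyte markers summed to 56.0 to 81.7 CPM in the knockout and 22.0 to 37.4 CPM in the wild type, and 4 of 10 were tested, with 1 higher and 1 lower without overlap. The higher one, Pck1, which encodes an enzyme of glucose and glycerol synthesis, measured 34.7 to 61.0 CPM and 1.98 to 19.6 CPM and made up most of the sum in the knockout. The lower one, Cidec, measured 0.659 to 1.34 CPM in the knockout and 1.74 to 1.88 CPM in the wild type. Fabp4 was at 9.81 to 15.9 CPM with overlap, and Adipoq and Lep were each at 0 in 5 of 6 libraries. Small intestinal enterocyte markers summed to 120.1 to 125.9 CPM in the knockout and 84.5 to 99.95 CPM in the wild type, and 4 of 6 tested genes had every knockout library above every wild-type library. These were Slc5a1 (76.4 to 79.4 and 54.5 to 73.2 CPM), Fabp2 (8.23 to 22.1 and 1.34 to 6.26 CPM), Rbp2 (2.13 to 7.44 and 1.32 to 1.84 CPM) and Alpi (1.37 to 4.36 and 0 to 0.185 CPM). The other tested genes overlapped between the groups: Anpep (17.7 to 21.6 and 15.3 to 22.0 CPM) and Mttp (3.02 to 5.12 and 3.55 to 6.43 CPM). Apoc3 was at 0 throughout, Sis reached at most 0.517 CPM and Lct at most 0.402 CPM. The part of these cell types in the members' values was not tested.

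Members were also set against the mean log2 level of the epithelial markers, which was 8.86 to 9.08 over all libraries. Subtracting so steady a level could change the group differences only a little, so it is not a control. Relative to it the median difference was 1.59 over the 9 tested members, beside 1.65 for plain log2 CPM. For 8 every knockout library lay above every wild-type library, and Ces1g overlapped. The share of all genes without overlap on these relative scales was not computed, so nothing is read from such counts here. Relative to the mature colonocyte markers the median difference was 0.48, and the members parted. These markers were themselves higher in the knockout, so subtracting them lowers the difference of any gene. Ces2a (1.12), Ces1e (0.83) and Ces2c (0.79) still had every knockout library above every wild-type library. Ces2b (0.53), Ces1d (0.48) and Ces2e (0.16) overlapped between the groups. Ces1f (−0.55) and Ces2g (−0.54) had every knockout library below every wild-type library, and Ces1g was at −0.78 with overlap. For Ces2a the log2 level relative to these markers was −1.86 ± 0.26 in the knockout and −2.97 ± 0.30 in the wild type, and for Ces1f −2.70 ± 0.06 and −2.15 ± 0.04 (SD, n = 3).

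**Figure D5:**
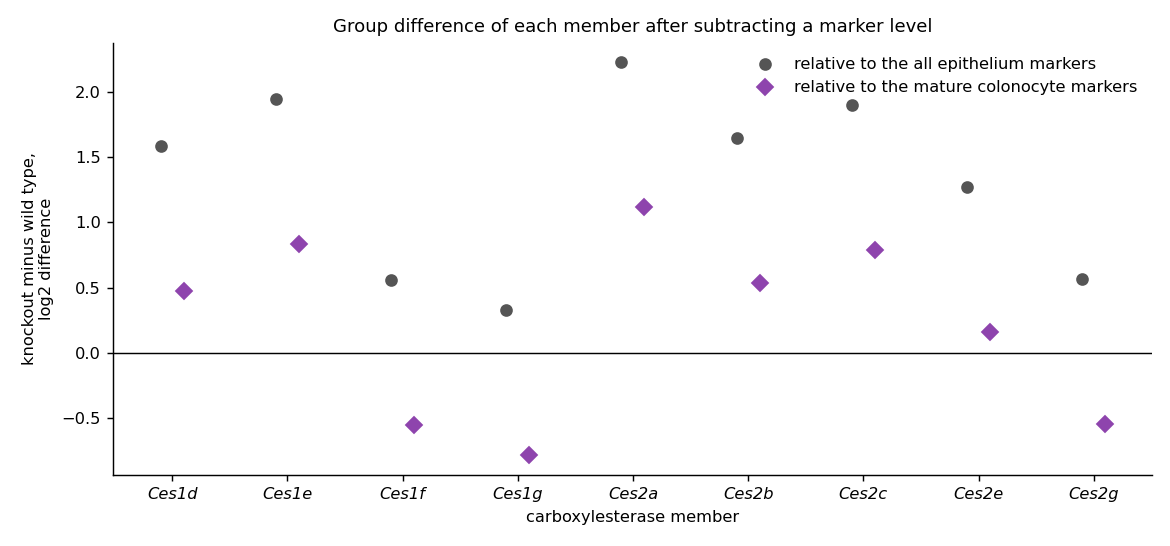
Difference between the group means (knockout minus wild type, n = 3 each, log2) of each tested member after subtracting the mean log2 CPM of the epithelial markers (circles) or of the mature colonocyte markers (diamonds) in each library. All circles lie above 0, from 0.33 for Ces1g to 2.23 for Ces2a, and the diamonds of Ces1f, Ces1g and Ces2g lie below 0.

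For other enzymes and partners of ester and lipid metabolism, counts at an unadjusted p under 0.05 stand beside 6.63% higher and 4.12% lower over all tested genes, and medians beside −0.01. Among 23 tested neutral lipid hydrolases the median log2 fold change was −0.02, and edgeR called 0, with 2 higher and 1 lower at an unadjusted p under 0.05. The abundant ones were Pnliprp2 (−0.41, SE 0.30, adjusted p = 0.637) and Pnliprp1 (−0.95, SE 0.25, adjusted p = 0.345), both relatives of pancreatic lipase, then Pnpla8 (0.08) and the lysosomal lipase gene Lipa (0.19). DESeq2 called Pnliprp1 lower. Of 17 other hydrolases of drugs and esters edgeR called 0, with 1 in each direction at an unadjusted p under 0.05, and the median was 0.02. The most abundant, Lypla1, Pon3, Pon2 and Esd, had log2 fold changes of 0.02, 0.21, 0.10 and −0.04.

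Triglyceride synthesis, lipid droplet and lipoprotein genes had a median of −0.03 over 23 tested, with 0 called by edgeR and 2 in each direction at an unadjusted p under 0.05. Apob, the lipoprotein backbone, measured 182.2 ± 95.7 CPM in Trim21 -/- tumours and 104.1 ± 43.0 CPM in Trim21 +/+ tumours (SD, n = 3), which overlapped, and Soat1, Plin2 and Gpat4 had −0.34, 0.07 and −0.03. A list of 10 genes covered retrieval to the endoplasmic reticulum, where carboxylesterases reside, and partners in its lumen. Of these edgeR called 0, with 1 lower at an unadjusted p under 0.05, and the median was −0.05. The retrieval receptor genes Kdelr1, Kdelr2 and Kdelr3 had 0.09, 0.22 and 0.56, and were the 3 genes of the list above 0. The chaperone genes Hspa5, Hsp90b1, Pdia3 and P4hb had −0.19, −0.01, −0.15 and −0.03. The gene lower at an unadjusted p under 0.05 was Gusb, the β-glucuronidase that egasyn holds, which is named after its values were seen. It measured 92.3, 101.6 and 107.9 CPM in Trim21 -/- tumours and 139.6, 130.7 and 130.2 CPM in Trim21 +/+ tumours, a log2 fold change of −0.41 (SE 0.09, edgeR adjusted p = 0.333), and DESeq2 called it lower.

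Nuclear receptors and other factors of xenobiotic and lipid metabolism had a median log2 fold change of 0.20 over 22 tested. With edgeR 0 passed, with 5 higher and 0 lower at an unadjusted p under 0.05, where 6.63% and 4.12% of all genes were found. Every knockout library lay above every wild-type library for 8, and below for 0. Over all tested genes these shares were 9.49% and 8.37%. By level the first were Hnf4a (0.31, SE 0.15, adjusted p = 0.498), a regulator of the enterocyte programme, Nfe2l2 (−0.11), the vitamin D receptor gene Vdr (1.25, SE 0.33, adjusted p = 0.343) and Ppard (0.22). DESeq2 called Vdr higher. Nr1i2, the pregnane X receptor, which is known to act on carboxylesterase genes in liver and intestine, is named after its values were seen. It measured 36.0, 31.6 and 35.9 CPM in Trim21 -/- tumours and 20.9, 29.4 and 28.3 CPM in Trim21 +/+ tumours, a log2 fold change of 0.40 (SE 0.16, edgeR adjusted p = 0.437). Nr1i3 and Rxra of the same list had −0.19 and 0.08, with overlap between the groups. The part of these receptors in the members' values was not tested.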

How the data were processed

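RNA of 6 colon tumour samples was sequenced after removal of ribosomal RNA, per the labels' protocols. The authors deposited raw read counts per gene symbol. Per the submitters' processing notes, mm10, TopHat2, edgeR and limma were used, with no versions or roles, and neither the read counter nor its strand setting is given there. Counts were analysed in R 4.3.3 with edgeR 4.0.16 (quasi-likelihood test, TMM scaling, filterByExpr, group as the only term, two-sided, Benjamini-Hochberg adjustment over 16281 genes). Alternatives used DESeq2 1.42.0, limma-voom (limma 3.58.1), 3 scalings, 2 filters, a block on replicate number and omission of each library in turn. CPM refers to the TMM-scaled library size. Log2 CPM used a prior count of 2. Totals ranged from 17937821 to 29742757 reads. The labels call the replicates biological but do not say that each is its own mouse, so p-values may measure only the spread between samples. The tests were checked on simulated counts.

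The members and all gene lists were chosen with earlier results of these data known. Named genes are the 10 members, every other carboxylesterase gene, the 4 most abundant genes of each of 5 pathway lists, the 5 genes most alike in profile to the most abundant Ces1 and Ces2 member, and Trim21. Gusb, Kdelr1, Kdelr2, Kdelr3, Nr1i2, Nr1i3, Rxra and the single markers of liver, fat and small intestine fall outside this rule. They were named after their values were seen. Positions, transcript lengths and coding sequences come from GENCODE M21 (GRCm38), using the transcript with the longest coding sequence.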

Additional observations from a re-analysis of the deposited data

How the results depend on the processing

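The alternative settings gave 127 log2 fold changes for the 9 tested members. They refit the same libraries for members chosen on this contrast, so nothing is read from all of them being above 0. Of these values 126 lay within 1 SD between replicates of the value reported. The exception was Ces1d without wild-type replicate 3, at 2.34. With edgeR 0 genes passed in every setting other than leaving out a library, where the count was 0 to 1. DESeq2 called 337 genes, and 1 each among the other carboxylesterases, the neutral lipid hydrolases, the nuclear receptors and the endoplasmic reticulum genes. The members' median was 0.94 to 1.84 over the omissions of 1 library. The difference in the log2 ratio of Ces2 to Ces1 was 0.52 to 0.86 over these omissions, 0.73 per kilobase and 0.42 from mean log2 CPM. The members' median relative to the epithelial markers was 1.59, or 1.04 to 1.90 over the omissions and 1.04 without wild-type replicate 1. It was 0.48 relative to the mature colonocyte markers, and the cause was not tested.

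Replicate numbers are shared by the groups, and the labels do not say whether they pair the samples. Deviations from the group mean had correlations of −0.15, −0.18 and −0.07 between same-numbered libraries. With 3 libraries per group these values cannot show whether samples were paired. With the replicate number as a block edgeR called 0 genes, with 0 in each list, the members' median was 1.66 and the log2 ratio difference 0.67. Depth limits Ces3a, Ces1e and Ces2b, which have 10, 246 and 306 reads in all.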
